A study of Homo sapiens with 6 samples.

Results

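The 10 genes described here encode heat shock proteins and their helpers in KO52, an acute myeloid leukemia cell line. They are HSPA6, HSPA1A, HSPA1B, HSPA8, HSPH1, DNAJB1, HSP90AA1, HSPB1, BAG3 and HSPE1, out of 15395 genes tested and 60612 gene IDs counted. They were picked from chaperone genes driven by the factor HSF1, with results of these same libraries known, so their values are a description. Whether the fit across all genes called them is given in the same way, as a description and not as a test of them. All 10 passed the filter on low counts.

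KO52 carries mutations of both CEBPA alleles, and every group shares them. The cells held a doxycycline-inducible lentiviral vector and were sorted for GFP after induction. In the dnCEBP group the vector expressed a dominant negative C/EBP peptide, in the dnFOS group a dominant negative FOS peptide, and in the EV group it was empty. Both peptides pair with members of the family they are aimed at, C/EBP or AP-1, and keep them off DNA. Each group held 2 RNA-seq libraries, and the labels do not say whether these came from separate cultures, so the p-values may measure technical spread alone. The groups ask how the chaperone genes stood when either family was blocked in the same cells, against a vector without a peptide.

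Total counts ran from 21681121 to 27663179 in the EV and dnCEBP libraries, and were 14583615 and 9862994 in dnFOS replicates 1 and 2. The dnFOS libraries were therefore the shallowest, and their replicates stood further apart than the others. The chi-square of their counts, divided by its degrees of freedom, was 14.2 against 7.55 in EV and 8.46 in dnCEBP. The fit shares its estimate of the spread over all groups, so standard errors and p-values of comparisons with dnFOS may be too small. The 7 blood and myeloid markers looked up, PTPRC, CD33, CD34, KIT, MPO, SPI1 and CEBPA, were detected in all 6 libraries, with a lowest count of 136 for KIT in dnFOS replicate 2. Of the markers of other cell types, CD3E had at most 4 counts in a library, while EPCAM had 389 to 751 and PECAM1 647 to 1869. In cells measured in bulk, fewer cells making an RNA and less of it per cell cannot be told apart.

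Heat shock proteins are chaperones that hold unfolded proteins, refold them or hand them to degradation. HSF1, kept inactive in unstressed cells by chaperones, forms trimers under heat or proteotoxic stress and binds heat shock elements, inverted repeats of the unit GAA, in the promoters of chaperone genes. HSP70 proteins bind and release clients with the help of J-domain proteins, which start ATP hydrolysis, and of exchange factors, which end the cycle. Leukemia cells commonly carry high levels of HSP90 and constitutive HSP70.

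Paired GAA units, as found in heat shock elements, are shown in the promoters of 7 of the 10 genes, since HSF1 binds such elements in chaperone promoters. The windows are 250 bases before to 50 after each start in RefSeq (build GRCh38.p14), and all 10 genes matched, with 13 windows because some genes have several starts. Only bases before the start are printed, 5′ to 3′ on the gene's own strand. Capitals mark each match to GAANNTTC or TTCNNGAA, which are the 2 ways a pair of GAA units can face each other. Both are palindromes, so a match stands on both strands, and a run of 13 capitals is a GAANNTTC and a TTCNNGAA that share their middle unit.
HSPA6 (chr1:161524345-161524493, plus strand): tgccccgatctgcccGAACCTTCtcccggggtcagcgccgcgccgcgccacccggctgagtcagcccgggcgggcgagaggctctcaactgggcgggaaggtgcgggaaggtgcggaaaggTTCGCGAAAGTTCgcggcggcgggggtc
HSPA1A (chr6:31815422-31815459, plus strand): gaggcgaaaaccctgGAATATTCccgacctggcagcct
HSPA1B (chr6:31827618-31827655, plus strand): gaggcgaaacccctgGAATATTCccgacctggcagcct
HSPA8 (chr11:123062164-123062381, minus strand): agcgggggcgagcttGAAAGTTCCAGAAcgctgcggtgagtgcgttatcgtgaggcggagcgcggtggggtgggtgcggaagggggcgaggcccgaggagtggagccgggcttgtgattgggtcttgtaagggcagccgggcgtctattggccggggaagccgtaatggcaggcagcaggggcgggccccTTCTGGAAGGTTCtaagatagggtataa
DNAJB1 (chr19:14518422-14518489, minus strand): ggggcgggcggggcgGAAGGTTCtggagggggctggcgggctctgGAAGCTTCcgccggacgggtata
HSP90AA1 (chr14:102087090-102087147, minus strand): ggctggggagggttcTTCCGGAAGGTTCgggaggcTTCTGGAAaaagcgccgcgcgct
HSPB1 (chr7:76302476-76302513, plus strand): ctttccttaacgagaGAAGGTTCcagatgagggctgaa

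The joined form, with 3 units in a row, stood in 0.49% of all 35116 promoter windows and in those of HSPA6, HSPA8 and HSP90AA1. In HSPA6 it lay 74 to 62 bases before the start. In HSP90AA1 it lay inside the printed stretch, 88 to 76 bases before the RefSeq start to which that window belongs. HSPA8 held it at 230 to 218 and again at 55 to 43 bases before the start. GAANNTTC, counted wherever it occurs and so also inside the joined form, stood in 6.77% of windows and in 7 of the 10 genes. TTCNNGAA stood in 7.74% of windows and in 3 genes, HSPA6, HSPA8 and HSP90AA1. HSPA1A and HSPA1B carried the same GAATATTC, 106 and 105 bases before their starts. HSPH1, BAG3 and HSPE1 had none of these letters in their windows.

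The letters bound by the families that the peptides block were searched in the same way on both strands. TGANTCA, the AP-1 motif, stood in 7.71% of windows and in 2 of the 10 genes. HSPA6 held it at 244 and 139 bases before the start, and the latter lies in lower case in the stretch printed above. BAG3 held it 19 bases before the start. TTGCNNAA, a C/EBP motif, stood in 10.5% of windows and in none of the 13 windows of the 10 genes. CCAAT was searched too, as a common promoter motif and not as a site of either blocked family. It stood in 34.6% of windows and in 5 of the 10 genes, HSPA1A, HSPA1B, HSPA8, DNAJB1 and HSP90AA1. These are matches of letters in short windows and no measurement of binding.

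For HSPA6, HSPA1A, HSPA1B, DNAJB1 and HSPB1, both dnFOS libraries lay below both EV libraries and both dnCEBP libraries above them. With dnFOS the first 4 were lower than in EV by 1.30-fold for DNAJB1 up to 2.23-fold for HSPA6, and HSPB1, on 7 and 11 counts, by 2.50-fold. With dnCEBP the 4 were higher by 1.40-fold for HSPA1A up to 2.02-fold for HSPA6, and HSPB1 by 1.77-fold. HSPH1 and HSPA8 lay above EV with dnCEBP and overlapped EV with dnFOS. HSP90AA1, BAG3 and HSPE1 overlapped EV in at least 1 of the comparisons and were called in neither. Both comparisons use the same 2 EV libraries, so an EV library that is high or low for a gene moves both values. Over all genes tested, both dnFOS libraries lay below both EV libraries for 28.4%. Both dnCEBP libraries lay above both EV libraries for 21.9%. The share of all genes with both patterns at once was not counted, so the number of members with both is a description.

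**Figure D1:**
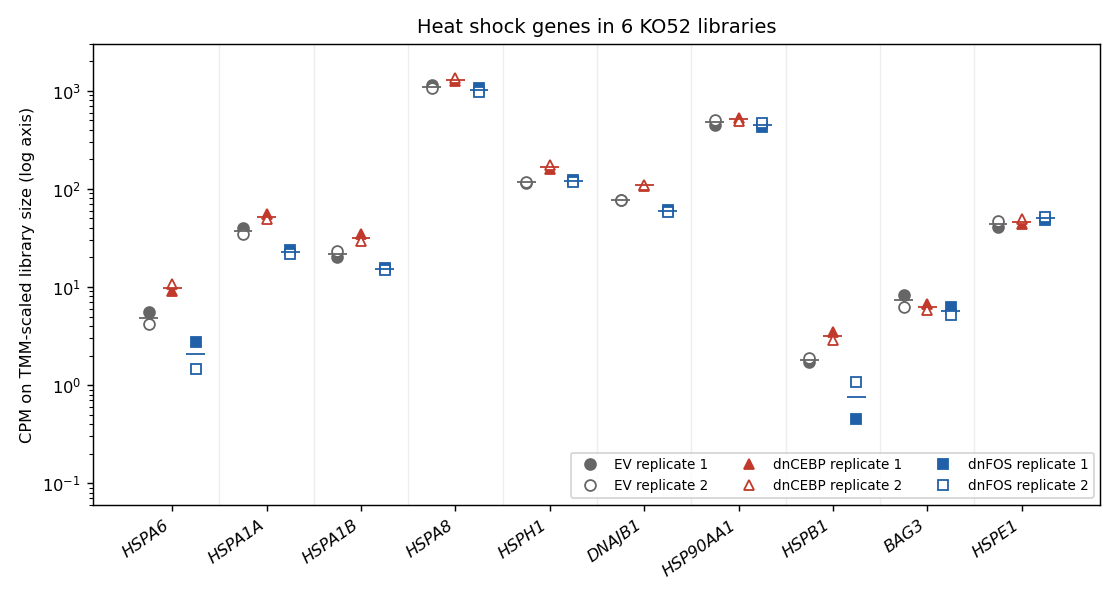
CPM of the 10 genes (log axis) in each of the 6 libraries. Filled symbols are replicate 1, open symbols replicate 2, and short lines the group means of 2 libraries. For HSPA6, HSPA1A, HSPA1B, DNAJB1 and HSPB1 both dnFOS libraries lie under both EV libraries and both dnCEBP libraries over them.

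HSPA6 encodes a strictly inducible HSP70 that is near silent in unstressed cells and is found in humans but not in mice. It lies at chr1:161524540-161526910 (GRCh38, GENCODE 29), in a gene of a single exon. In EV it had 131 and 92 counts, or 5.50 and 4.21 CPM (counts scaled to a common library size). In dnCEBP it had 244 and 221 counts, or 9.03 and 10.7 CPM, and in dnFOS 42 and 15 counts, or 2.73 and 1.45 CPM. The 3 groups did not overlap, with dnCEBP highest and dnFOS lowest. The log2 fold change against EV was -1.15 ± 0.28 (SE) with dnFOS and 1.01 ± 0.22 with dnCEBP, and both were called, at an adjusted p under 0.05. The dnFOS call was lost without EV replicate 1 or without dnFOS replicate 2, and the log2 fold change without 1 library ran from -1.74 to -0.83. The dnCEBP call was lost without EV replicate 2, without dnCEBP replicate 2, and in libraries thinned to one depth, with 0.83 to 1.22 without 1 library.

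HSPA7, a pseudogene near HSPA6, shares much of its sequence. Of the 75-base stretches in the HSPA6 transcript, 35% also occurred in HSPA7, and how reads matching both were counted is not given in the sources used here. The EV libraries held 3 and 8 counts of HSPA7, those of dnCEBP 22 and 7, and those of dnFOS 7 and 0. It overlapped between groups and passed no test, and it was small beside HSPA6. HSPA6 and HSPA7 summed had 5.62 and 4.58 CPM in EV, 9.84 and 11.0 in dnCEBP, with 3.19 and 1.45 in dnFOS. The log2 fold changes of the sum were -1.07 ± 0.28 with dnFOS and 1.03 ± 0.22 with dnCEBP, close to those of HSPA6 alone.

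HSPA1A and HSPA1B encode the main inducible cytosolic HSP70 from neighboring single-exon genes, chr6:31815464-31817946 and chr6:31827735-31830255. HSPA1A had 40.0 and 34.4 CPM in EV, 55.4 and 49.0 in dnCEBP, with 24.1 and 21.8 in dnFOS. HSPA1B had 20.1 and 23.4 CPM in EV, 34.3 and 29.5 in dnCEBP, with 15.7 and 15.0 in dnFOS. For both genes the libraries of the 3 groups lay apart, in the same order as for HSPA6. The log2 fold changes with dnFOS were -0.69 ± 0.12 for HSPA1A and -0.50 ± 0.14 for HSPA1B, and with dnCEBP 0.49 ± 0.11 and 0.56 ± 0.13. All 4 were called.

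Which copy a read came from is uncertain, because 71.2% of the 75-base stretches of HSPA1A recur in other transcripts, all of them in HSPA1B, and 73.2% of those of HSPA1B do. HSPA1B also shares 36.5% of its exon bases with another transcript on the same strand, AL671762.1. The sum does not depend on which copy a read was given to, but any reads dropped for matching both copies are missing from it too. It was 60.1 and 57.9 CPM in EV, 89.7 and 78.6 in dnCEBP, with 39.8 and 36.7 in dnFOS, so the EV libraries lay closer together than for either copy. Its log2 fold changes were -0.62 ± 0.10 with dnFOS, or 1.54-fold lower, and 0.51 ± 0.09 with dnCEBP, or 1.43-fold higher. HSPA1A held 59.2% to 66.6% of the pair's counts over the 6 libraries, with the highest share in EV replicate 1. The HSPA1A call with dnFOS stayed in all 18 alternative settings, of which 1 tests the sum of the copies in place of HSPA1A. That of HSPA1B was lost without EV replicate 2, without dnFOS replicate 2, with library totals as the scale and with the trend on GC content and length removed. With dnCEBP the HSPA1A call was lost without EV replicate 2 or either dnCEBP replicate, and that of HSPA1B without any 1 of the 4 libraries, and both with library totals and in thinned libraries.

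**Figure D2:**
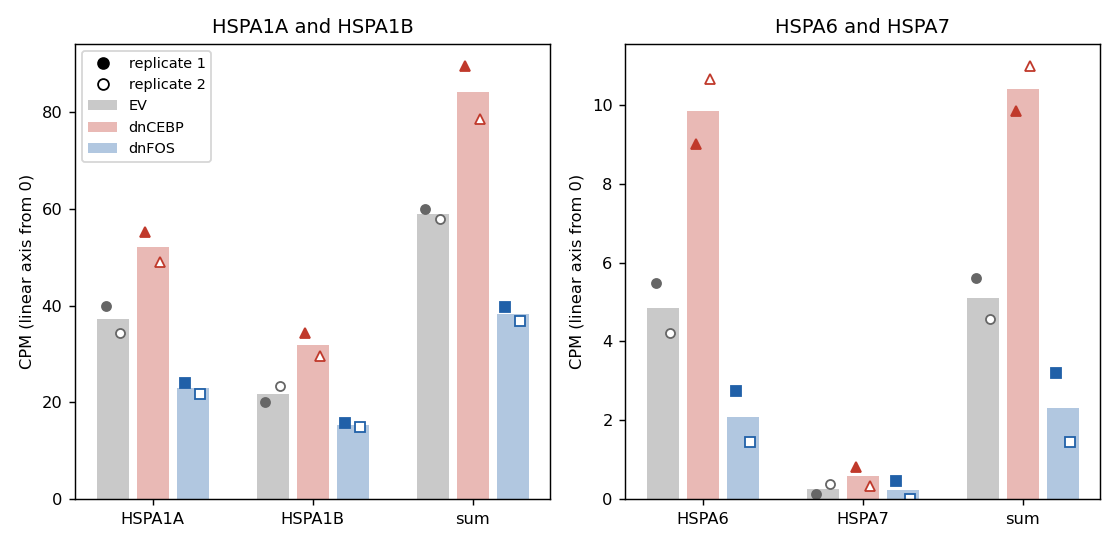
CPM on linear axes from 0 for HSPA1A, HSPA1B and their sum, and for HSPA6, HSPA7 and their sum. Bars are means of 2 libraries and points the single libraries, filled for replicate 1 and open for replicate 2. The sum of HSPA1A and HSPA1B lies at 36.7 to 39.8 CPM in dnFOS, 57.9 to 60.1 in EV and 78.6 to 89.7 in dnCEBP.

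HSPA8 encodes the constitutive HSP70 of the cytosol, which folds new proteins, strips clathrin coats and delivers clients to lysosomes. It was the most abundant of the 10, with 1132 and 1057 CPM in EV, 1253 and 1335 in dnCEBP, with 1059 and 976 in dnFOS. The dnCEBP libraries lay above all others, while dnFOS and EV overlapped. Its log2 fold changes were -0.11 ± 0.09 with dnFOS and 0.24 ± 0.09 with dnCEBP, and neither was called.

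The partners of HSP70 differed among themselves. DNAJB1, the J-domain protein that is induced with HSP70 and starts its ATP cycle, had 76.8 and 77.2 CPM in EV, 108 and 110 in dnCEBP, with 60.9 and 57.5 in dnFOS. The replicates of DNAJB1 lay close together and the 3 groups well apart. Its log2 fold changes were -0.38 ± 0.09 with dnFOS and 0.50 ± 0.09 with dnCEBP, and both calls stayed in all 18 alternatives. Exons of TECR on the opposite strand cover 5.75% of its exon bases. HSPH1, the HSP110 exchange factor of HSP70, had 116 and 118 CPM in EV, 160 and 177 in dnCEBP, with 122 and 118 in dnFOS. Both dnCEBP libraries of HSPH1 lay above all others, while dnFOS overlapped EV. Its log2 fold change was 0.52 ± 0.08 with dnCEBP, called in all 18 alternatives, and 0.03 ± 0.09 with dnFOS, not called. BAG3, which couples HSP70 to selective autophagy, had 8.31 and 6.27 CPM in EV, 6.66 and 5.89 in dnCEBP, with 6.25 and 5.22 in dnFOS. Both dnFOS libraries of BAG3 lay just under both EV libraries, but its log2 fold changes of -0.34 ± 0.22 with dnFOS and -0.21 ± 0.20 with dnCEBP were not called.

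HSP90AA1 encodes the inducible form of cytosolic HSP90, which matures kinases and hormone receptors. It had 447 and 505 CPM in EV, 526 and 494 in dnCEBP, with 425 and 469 in dnFOS. The groups overlapped in both comparisons with EV, with log2 fold changes of -0.09 ± 0.09 with dnFOS and 0.10 ± 0.09 with dnCEBP. On the opposite strand, exons of WDR20 cover 3.75% of its exon bases, and whether strand was used in counting is not given in the sources used here.

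HSPB1 encodes HSP27, a small heat shock protein that binds unfolded clients without ATP. It was the scarcest of the 10, at 41 counts in either EV library, 95 and 59 in dnCEBP, with 7 and 11 in dnFOS. These are 1.72 and 1.88 CPM in EV, 3.52 and 2.85 in dnCEBP, with 0.456 and 1.06 in dnFOS. The 3 groups did not overlap, but the dnFOS values rest on few reads. The log2 fold change with dnFOS was -1.32 ± 0.45 and was called, yet the call stayed in only 7 of 18 alternatives. It was absent with DESeq2 and limma-voom, and lost without either EV library, either dnCEBP library or dnFOS replicate 1, with -1.97 to -0.75 over the fits without 1 library. With dnCEBP it was 0.83 ± 0.33 and not called.

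HSPE1 encodes HSP10, the lid of the mitochondrial chaperonin. It had 40.5 and 46.7 CPM in EV, 43.5 and 48.8 in dnCEBP, with 47.7 and 52.2 in dnFOS. Both dnFOS libraries lay above both EV libraries, but its log2 fold change of 0.19 ± 0.11 was not called, nor was 0.08 ± 0.11 with dnCEBP. Of its 75-base stretches 22.3% recur in other transcripts, and exons of HSPD1 on the opposite strand cover 14.2% of its exon bases. HSPE1-MOB4, a read-through transcript that overlaps it, had 1 to 9 counts per library and was not tested.

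**Figure D3:**
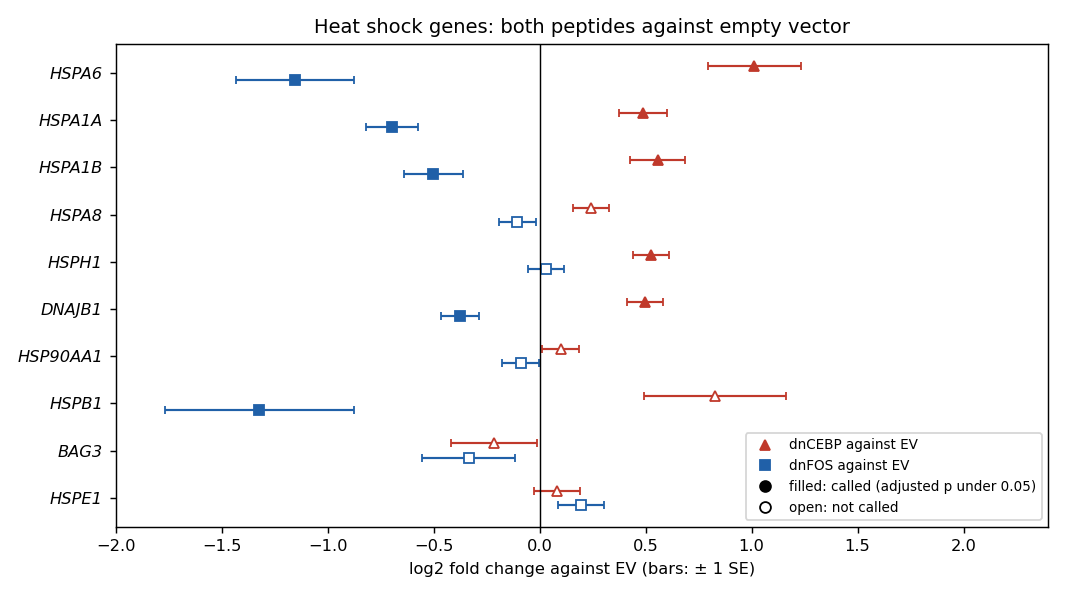
Log2 fold change of the 10 genes against EV (horizontal axis, bars of 1 SE) with dnCEBP (triangles) and dnFOS (squares), 2 libraries per group. Filled symbols passed an adjusted p under 0.05 and open ones did not. HSPA6, HSPA1A, HSPA1B and DNAJB1 are filled on opposite sides of 0, and HSPH1 is filled with dnCEBP alone.

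With dnFOS, 5 of the 10 genes were called lower and 0 higher, where 7.76% and 7.24% of the 15395 genes tested were called in these directions. Both dnFOS libraries lay below both EV libraries for 6 of the 10, and for 28.4% of all genes. The median log2 fold change of the 10 was -0.36, beside 0.00 over all genes. With dnCEBP, 5 were called higher and 0 lower, where 0.624% and 0.448% of all genes were. Both dnCEBP libraries lay above both EV libraries for 7 of the 10, and for 21.9% of all genes, and the median was 0.49 beside -0.00. Because the 10 were chosen with these results known, nothing is read from these counts. With library totals as the scale, the medians of the 10 were -0.26 with dnFOS and 0.47 with dnCEBP, and those of all genes 0.10 and -0.03.

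The peptides were also set against each other, a comparison that does not use the EV libraries for its fold change. Lower values in dnFOS than in dnCEBP were called for 7 of the 10, and higher values for 0, where 7.84% and 6.83% of all genes were called. HSPA6 differed by 4.49-fold, with a log2 fold change of -2.17 ± 0.26, and HSPB1 by 4.44-fold (-2.15 ± 0.42). HSPA1A and HSPA1B had log2 fold changes of -1.18 ± 0.12 and -1.06 ± 0.14, and their sum -1.13 ± 0.10. DNAJB1 followed with -0.87 ± 0.09, HSPH1 with -0.49 ± 0.09 and HSPA8 with -0.35 ± 0.09. The HSPA8 call was lost without dnCEBP replicate 2 or dnFOS replicate 2, and the other 6 calls stayed in every alternative. Both dnFOS libraries lay below both dnCEBP libraries for 8 of the 10, HSP90AA1 included at -0.19 ± 0.09 and not called, and for 25.9% of all genes. BAG3 at -0.12 ± 0.22 and HSPE1 at 0.11 ± 0.11 overlapped and were not called. The median of the 10 was -0.68, beside 0.02 over all genes.

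Among themselves the 10 genes spanned a wide range of levels. In EV, as CPM per kb of exon, HSPA8 stood highest at 226 ± 11.0 (SD, n = 2) and HSP90AA1 next at 90.7 ± 7.81. HSPE1 (22.0 ± 2.22) and DNAJB1 (21.0 ± 0.0883) followed and overlapped, as did HSPA1A (15.0 ± 1.59) and HSPH1 (14.0 ± 0.199). HSPA1B stood at 8.63 ± 0.938, BAG3 at 2.65 ± 0.524 and HSPA6 at 2.05 ± 0.383, the last pair overlapping, and HSPB1 lowest at 1.10 ± 0.0679. The length used is that of all annotated exons of a gene, 8390 bases for HSPH1 and 1977 for HSPE1. Their longest transcripts have 5191 and 950 bases, while HSPA1A has 2483 either way. The order of genes with close values therefore depends on the length chosen. The levels of HSPA1A, HSPA1B, HSPA6 and HSPE1 also depend on how reads matching several genes were counted. Together the 10 held 0.180% to 0.186% of all counts in the EV and dnFOS libraries and 0.215% and 0.216% in dnCEBP, most of it HSPA8 and HSP90AA1.

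The wider chaperone network was described with 98 further genes in 10 lists, of which 89 were tested. These lists hold genes grouped by known function, and were set with earlier results of these libraries known. With dnFOS, 21 of the 89 fell (23.6%, beside 7.76% of all genes tested) and 6 rose (6.74%, near the 7.24% of all genes), and the median log2 fold change was -0.11. With dnCEBP, 3 fell (3.37%, beside 0.448% of all genes) and none rose (beside 0.624%) by edgeR, with a median of 0.01. At an unadjusted p under 0.05 stood 15 of the 89, beside 1835 of all 15395 genes tested. DESeq2 and limma-voom also called 3 lower and 0 higher. Between the peptides, 22 were lower in dnFOS (24.7%, beside 7.84% of all genes) and 5 higher (5.62%, beside 6.83%). With library totals as the scale the split turned to 13 lower and 10 higher for dnFOS against EV, and to 9 lower and 12 higher between the peptides. That scale moved all genes. For dnFOS against EV the median was -0.01 in the wider lists beside 0.10 over all genes, and between the peptides 0.01 beside 0.14. In the main fit these medians were -0.11 beside 0.00, and -0.11 beside 0.02.

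**Figure D4:**
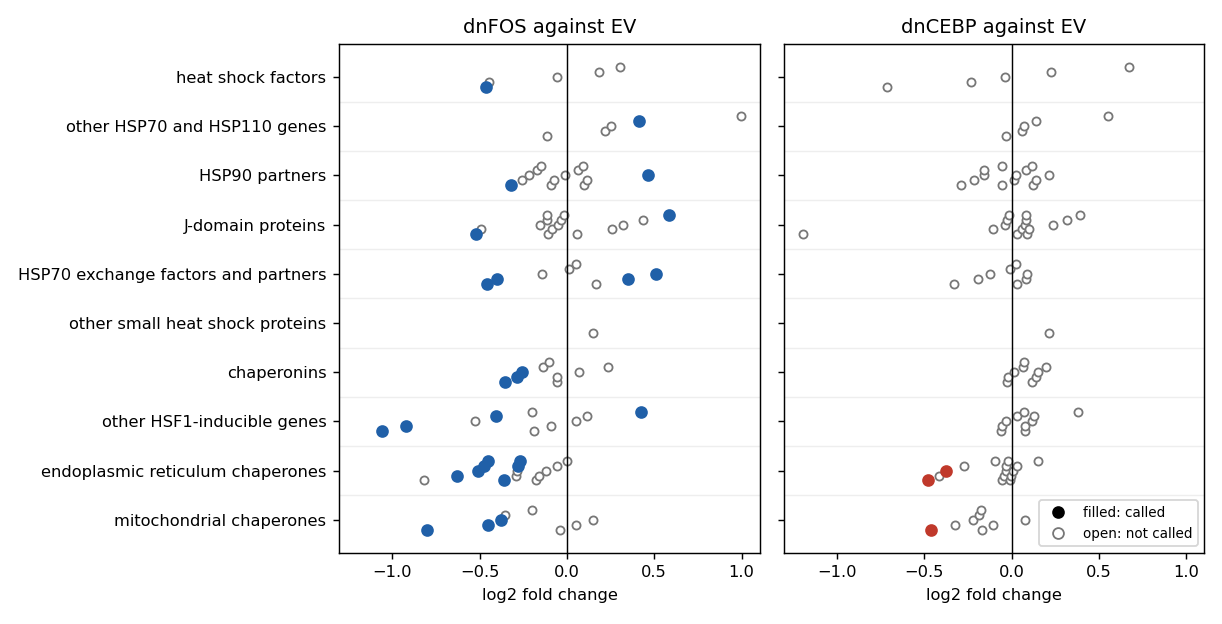
Log2 fold change of 89 further chaperone genes by list, with dnFOS (left) and dnCEBP (right) against EV. Filled points passed an adjusted p under 0.05. The left panel holds 27 filled points, 21 of them below 0, and the right panel 3, all below 0.

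Of the heat shock factors, 1 of 5 tested fell with dnFOS (20%, beside 7.76% of all genes). HSF1 itself, the factor that drives the inducible chaperones, had 65.0 and 59.3 CPM in EV, 57.6 and 47.9 in dnCEBP, with 46.5 and 43.4 in dnFOS. Its log2 fold change with dnFOS was -0.47 ± 0.11 (edgeR adjusted p = 0.00315), and with dnCEBP -0.23 ± 0.10 (edgeR adjusted p = 0.352). The dnFOS call was lost without EV replicate 1, and with the trend on GC content and length removed, where the value was -0.19. HSF2, a related factor with roles in development, had 30.7 and 30.5 CPM in EV, 27.8 and 32.0 in dnCEBP, with 28.8 and 30.2 in dnFOS. It passed no test, with -0.06 ± 0.12 for dnFOS (edgeR adjusted p = 0.812). HSBP1L1, related to an HSF1-binding protein, was not called against EV but was lower in dnFOS than in dnCEBP by 1.12 on the log2 scale (edgeR adjusted p = 0.001). It alone of the 5 was called between the peptides (20%, beside 7.84% of all genes).

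Of 10 other HSF1-inducible genes, 3 fell (30%, beside 7.76% of all genes) and 1 rose (10%, beside 7.24%) with dnFOS. None was called with dnCEBP. ZFAND2A, an arsenite- and heat-induced proteasome adaptor, had 16.5 and 15.0 CPM in EV, 17.5 and 15.6 in dnCEBP, with 7.62 and 7.54 in dnFOS. It fell by 1.06 on the log2 scale (edgeR adjusted p = 7.3e-05), the largest fall of the 89. CLU, a secreted chaperone, fell by 0.92 (edgeR adjusted p = 9e-06). ZFAND2A and CLU stayed called in all 18 alternatives. CRYZ, a quinone reductase, rose by 0.42 (edgeR adjusted p = 0.0142). With dnCEBP, ZFAND2A was at 0.07 ± 0.15 and CLU at -0.03 ± 0.12, and neither was called. Against dnCEBP, 4 were lower in dnFOS (40%, beside 7.84% of all genes). Among them were ZFAND2A, CLU and UBB, with log2 fold changes of -1.13, -0.89 and -0.30.

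The chaperones of the endoplasmic reticulum followed, of which 7 of 15 fell with dnFOS (46.7%, beside 7.76% of all genes) and none rose by edgeR. HSPA5, the BiP chaperone that restrains the unfolded protein response, fell by 0.63 on the log2 scale (edgeR adjusted p = 4.8e-05). HSP90B1, the resident HSP90, fell by 0.51, MANF, a secreted stress factor, by 0.47 and HERPUD1, a degradation factor, by 0.45 (edgeR adjusted p = 0.000102, 0.0105 and 0.00924). With dnCEBP 2 of 15 fell as well (13.3%, beside 0.448% of all genes). HSPA5 fell by 0.48 (edgeR adjusted p = 0.00678) and CALR, the lectin chaperone calreticulin, by 0.37 (edgeR adjusted p = 0.0153). HSPA5 was thus lower than in EV with both peptides, while the cytosolic HSPA1A and DNAJB1 lay on opposite sides. Without EV replicate 2 or dnCEBP replicate 2 the dnCEBP call of HSPA5 was lost, and that of CALR without any 1 of the 4 libraries. Against dnCEBP, 5 of 15 were lower in dnFOS (33.3%, beside 7.84% of all genes). Among them were MANF, HERPUD1, HSP90B1 and HYOU1, with log2 fold changes of -0.47, -0.42, -0.41 and -0.30.

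Of 8 mitochondrial chaperones 3 fell with dnFOS (37.5%, beside 7.76% of all genes). LONP1, a matrix protease, fell by 0.80 on the log2 scale (edgeR adjusted p = 1e-05), GRPEL1, the exchange factor of mitochondrial HSP70, by 0.45 (edgeR adjusted p = 0.00465), and HSPA9, that HSP70 itself, by 0.38 (edgeR adjusted p = 0.00233). LONP1 also fell with dnCEBP, by 0.46 (edgeR adjusted p = 0.0218), a call lost without either EV library or dnCEBP replicate 2. It alone of the 8 was called with dnCEBP (12.5%, beside 0.448% of all genes). Of 9 chaperonins, 3 fell with dnFOS (33.3%, beside 7.76% of all genes), all subunits of the cytosolic ring that folds actin and tubulin. CCT2 fell by 0.35, CCT8 by 0.29 and CCT7 by 0.25 (edgeR adjusted p = 0.00557, 0.0263 and 0.0361). HSPD1, the mitochondrial partner of HSPE1, did not pass, at 0.07 ± 0.08. Between the peptides 5 of 9 chaperonins were lower in dnFOS (55.6%, beside 7.84% of all genes). Among them were CCT2, CCT8, TCP1 and CCT7, with log2 fold changes of -0.50, -0.42, -0.30 and -0.27. LONP1 was lower too, with a log2 fold change of -0.34, alone of the 8 mitochondrial chaperones (12.5%, beside 7.84% of all genes).

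Of 8 exchange factors and partners of HSP70, BAG2 rose by 0.51 and BAG4 by 0.35, and BAG6 fell by 0.46 and BAG1 by 0.40 on the log2 scale with dnFOS (edgeR adjusted p = 0.00583, 0.0165, 0.000887 and 0.0337). Of 13 HSP90 partners, FKBP5, an immunophilin of hormone receptor complexes, rose by 0.47 (edgeR adjusted p = 0.00104) and CDC37, which brings kinases to HSP90, fell by 0.32 (edgeR adjusted p = 0.0371). Of 15 J-domain proteins, DNAJB14, of the endoplasmic reticulum membrane, rose by 0.59 and DNAJB2 fell by 0.52 (edgeR adjusted p = 0.000926 and 0.0187). Of 5 other HSP70 and HSP110 genes tested, HSPA4L alone was called and rose by 0.41 (edgeR adjusted p = 0.012), or 20% beside 7.24% of all genes. For the HSP90 partners 7.69% and for the J-domain proteins 6.67% were called in each direction, near the share of all genes. For the exchange factors and partners of HSP70 it was 25% in each direction. None of these lists had a gene called with dnCEBP. Of 6 other small heat shock proteins 1 was tested and not called, and CRYAB, HSPB2, HSPB6, HSPB7 and HSPB8 had 0 counts in all 6 libraries.

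Between the peptides, 15.4% of the 13 HSP90 partners and 25% of the 8 exchange factors and partners of HSP70 were called in each direction. For the 5 other HSP70 and HSP110 genes tested it was 20% in each direction. Of the 15 J-domain proteins 6.67% were called lower in dnFOS and 0% higher. Over all genes these shares were 7.84% and 6.83%. FKBP5 was higher in dnFOS than in dnCEBP by 0.76 and PTGES3, the HSP90 co-chaperone p23, by 0.26. CACYBP and HSP90AB1, the constitutive HSP90, were lower, with log2 fold changes of -0.36 and -0.24. BAG2 and BAG5 were higher by 0.48 and 0.36, and BAG1 and BAG6 lower, with log2 fold changes of -0.42 and -0.34. HSPA4L was higher by 0.34, and HSPA4 and DNAJB2 lower, with log2 fold changes of -0.25 and -0.61. The calls of HSPA4 and HSPA4L were lost in each of the 6 fits that leave out 1 library. Those of PTGES3 and HSP90AB1 were lost without either EV library, either dnCEBP library or dnFOS replicate 2, and stayed in 8 and 10 of 18 alternatives. The PTGES3 call was also absent with DESeq2 and limma-voom.

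Of the 27 calls with dnFOS among the wider lists, 9 stayed in every alternative, those of FKBP5, BAG6, ZFAND2A, CLU, HSPA5, HSP90B1, HSPA9 and LONP1 among them. The other 18 were each lost without 1 of the EV or dnFOS libraries, 15 of them without dnFOS replicate 2, 14 without EV replicate 1, 9 without EV replicate 2 and 2 without dnFOS replicate 1. Between the peptides 8 of 27 calls stayed in every alternative, those of HSBP1L1, FKBP5, CCT2, CCT8, ZFAND2A, CLU and HSP90B1 among them. There, 17 calls were lost without dnFOS replicate 2, 15 without dnCEBP replicate 1 and 14 without dnCEBP replicate 2. With the trend on GC content and length removed, 10 of the 27 dnFOS calls against EV were lost. Among them were 5 of the 6 rises, all but that of FKBP5.

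Across the 6 libraries, the genes outside all lists whose log2 CPM was most like that of HSPA6 were CD3D (Pearson r = 0.997), RPL32P3 (0.996), WDR47 (0.995), CCRL2 (0.994) and OST4 (0.994). They are the highest of 12701 candidates over 6 points in 3 groups that share library and depth, and r is given as a description. CD3D, a subunit of the T cell receptor complex, had 122 and 115 CPM in EV, 144 and 148 in dnCEBP, with 104 and 90.7 in dnFOS. CCRL2, an atypical chemoattractant receptor, had 20.5 and 17.6 CPM in EV, 27.1 and 29.4 in dnCEBP, with 15.0 and 11.9 in dnFOS. Their order over the libraries was that of HSPA6, with a smaller span.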

How the data were processed

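RNA from 6 KO52 libraries was analysed, 2 each for EV, dnCEBP and dnFOS, with groups and replicate numbers from the sample titles. Per the labels, total RNA was depleted of ribosomal RNA, amplified with 15 PCR cycles and sequenced as 75-base paired-end reads. The authors deposited raw whole-number counts, 1 table per library, and the submitters' processing notes name Trimmomatic, HISAT2, featureCounts, Subread and hg38. The strand setting, the treatment of reads matching several genes and the annotation are not given in the sources used here. Counts of near-identical genes are therefore uncertain.

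IDs were matched to GENCODE 29 (58394 of 60612), whose GRCh38 coordinates and exon lengths are given. Counts were fitted with edgeR 4.0.16 in R 4.3.3. filterByExpr (minimum count 10) left 15395 of 27870 genes with a count. TMM factors ran from 0.956 to 1.05, and the robust quasi-likelihood fit with a mean per group used all 6 libraries, with 3 residual degrees of freedom (common BCV 0.0961). Tests were two-sided, p-values were adjusted (Benjamini-Hochberg) over every gene that passed the filter, and a call is an adjusted p below 0.05. Standard errors came from the fold change and its F statistic.

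The 10 members and all lists were chosen with earlier results of these data known. Named were the 10, their sums with near-identical copies, HSPA7, HSPE1-MOB4, HSF1, HSF2, at most 4 called genes per list and comparison with the largest change, and 5 genes most correlated with HSPA6. Genes of at least 1 CPM on average were candidates for these 5. Other genes named are list members given as values. Some list members are not reported here. Alternatives were no filter, a 1 CPM filter, median-of-ratios or library-total scaling, 5 features over 1% of a library left out, only the groups compared, DESeq2 1.42.0, limma-voom (limma 3.58.1), a replicate block, a trend on GC content and length removed, copies summed, and each library left out. Thinning to 9862994 counts was added after seeing the data.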

Additional observations from a re-analysis of the deposited data

How the results depend on the processing

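The direction of every call of the 10 genes held in all alternatives. Counts of calls depended on scaling and single libraries. For dnFOS against EV, 5 members were called, 3 with library totals, 3 with the trend on GC content and length removed, and 3 to 4 without 1 library. For dnCEBP against EV, 5 were called, 3 with library totals, 2 in thinned libraries, and 2 to 5 without 1 library. Between the peptides 7 were called, and 6 to 7 without 1 library. Of the wider lists, 27 genes were called for dnFOS against EV and 13 to 28 without 1 library, with the lowest without dnFOS replicate 2. Between the peptides 27 were called and 11 to 28 without 1 library, again lowest without dnFOS replicate 2. For dnCEBP against EV, 3 were called and 0 to 3 without 1 library. The cause was not tested. A fit with 1 library of a group left out assumes that the lone library varies like the other groups.

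The replicate numbers in the titles name no shared batch, and deviations of same-numbered libraries correlated at 0.017, 0.028 and 0.088 between groups, so the samples were taken to share only a number. With a replicate block, the calls among the members were 5, 5 and 7. Among the wider lists they were 32 for dnFOS against EV and 34 between the peptides. For dnCEBP against EV they were 7, of which 2 were higher and 5 lower. The share of all genes called under each alternative setting is not given here. Changes in these counts between settings therefore cannot be read as particular to chaperone genes.

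Depth limits the scarce genes most. A count of 3, taken as the floor, was 0.126 CPM in EV replicate 1 and 0.290 CPM in dnFOS replicate 2, and HSPB1 had 7 and 11 counts in dnFOS. Floors and counts cover counting error only.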
